A study of Gallus gallus with 6 samples.

Results

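The microRNAs miR-99a, miR-100 and miR-125b, which share genomic clusters with let-7, were examined in chicken liver. Members were taken by name alone, and 6 of the 565 listed mature miRNAs carried these names, namely the 5p and 3p products of 3 hairpins. The livers came from healthy, untreated female hens of the Lushi green-shell breed kept in cages under shared conditions. They were 3 hens at 30 weeks of age (L30, peak-laying) and 3 hens at 20 weeks (L20, pre-laying), with 1 small RNA library taken as 1 hen, as no pooling is stated. Age and laying stage go together in this design and cannot be told apart.

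A miRNA is cut from a hairpin precursor, and either arm of the hairpin (5p or 3p) can give a mature strand that guides Argonaute to mRNAs through its seed, a short stretch near its 5′ end. MiR-99a and miR-100 belong to the same family and share a seed, and in mammals this family is known to repress MTOR. MiR-125b has a different seed and is the vertebrate relative of lin-4 of Caenorhabditis elegans, a regulator of developmental timing, as is let-7. In vertebrates, a miR-99 or miR-100 hairpin, a let-7 hairpin and a miR-125 hairpin typically lie together and can be transcribed as a single primary RNA. LIN28 proteins are known to block the maturation of let-7 from such transcripts.

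In the RefSeq annotation of assembly GRCg7b, the miR-99a hairpin neighbours those of let-7c and miR-125b-2, and the miR-100 hairpin neighbours those of let-7a-2 and miR-125b-1. The deposited table lists a single miR-125b hairpin, which RefSeq gives as miR-125b-2, so any reads from the other copy with the same mature sequence were counted with it. The listed products of the neighbouring let-7 hairpins, called the let-7 partners below, numbered 4. They were let-7c-5p and let-7c-3p of the miR-99a cluster and let-7a-5p and let-7a-2-3p of the miR-100 cluster. Let-7a-5p is listed for 3 let-7a hairpins, of which let-7a-2 is 1, whereas let-7a-2-3p is listed for that hairpin alone. Let-7c-3p had 1 or 2 reads in every library and was not tested.

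Reads counted on the listed miRNAs numbered 3864984 to 8804077 in L30 and 7135289 to 14822854 in L20. They made up 32.1% ± 13.5 (SD, n = 3) of the clean reads in L30 and 54.3% ± 4.64 (SD, n = 3) in L20, lowest in L30-3. Levels are given as TPM, which is counts scaled to 1000000 clean reads, and as RPM, which is counts scaled to 1000000 counted miRNA reads, so that TPM, unlike the second scale, depends on how much of a library was miRNA. A limit of 3 counts corresponds to 0.113 to 0.223 TPM, and the lowest count of a member was 23. As the libraries were amplified without molecular identifiers, this limit speaks of counting error alone. The hepatocyte marker miR-122-5p was abundant in every library, at 12705 to 37721 TPM in L30 and 49844 to 69839 TPM in L20. As TPM every L30 library lay below every L20 library, with a log2 fold change of −1.07 (adjusted p = 0.0622 in edgeR). As RPM the ages overlapped for miR-122-5p. Its other arm, miR-122-3p, had a log2 fold change of −1.50 (adjusted p = 0.0195 in edgeR). For miR-122-3p every L30 library lay below every L20 library on both scales. Endothelial miR-126 (2 products) summed to 6458 to 14792 TPM in L30 and 28732 to 42751 TPM in L20, with both products called lower (adjusted p of 0.05 or less). Of the erythroid markers 2 of 3 were called lower in L30, of the leukocyte markers 3 of 4, and of the mesenchymal miR-199 and miR-214 products 0 of 3. In the same fit 24.6% of all 236 tested miRNAs were called lower. The summed levels of the erythroid and leukocyte markers did not overlap between the ages, at 287.8 to 1197 TPM in L30 against 1597 to 3182 TPM in L20 and at 943 to 3664 TPM in L30 against 4627 to 6736 TPM in L20. The mesenchymal sum, at 1121 to 3214 TPM in L30 and 2604 to 5506 TPM in L20, overlapped. It is mostly miR-199-3p, whereas miR-199-5p and miR-214 each lay lower in every L30 library than in any L20 library on both scales. On the RPM scale the endothelial, erythroid and leukocyte sums also lay lower in all L30 libraries, for miR-126 at 30113 to 35547 RPM in L30 against 56766 to 73761 RPM in L20. Of the 236 tested miRNAs taken singly, 46.2% had every L30 library below every L20 library as TPM and 27.5% as RPM. No marker was at 0. In liver tissue, fewer cells of a type and less of a miRNA per cell cannot be told apart, and the part of these cells in the values below was not tested.

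MiR-100-5p was the most abundant member and ranked 12 of the 565 listed miRNAs by mean TPM over the 6 libraries. It had 8164, 6307 and 2189 TPM in L30-1, L30-2 and L30-3, against 11145, 10867 and 6909 TPM in L20-1, L20-2 and L20-3. L30-1 lay above L20-3, so the ages overlapped, and L30-3, the library with the smallest miRNA share, was the lowest. MiR-125b-5p came next, at rank 28, with 2373, 1699 and 624 TPM in L30 and 2172, 1061 and 882 TPM in L20. The libraries of the ages were interleaved, with L30-1 the highest of all and L30-3 the lowest. MiR-125b-3p followed at rank 72, with 160.4, 63.3 and 110.9 TPM in L30 and 190.9, 180.2 and 153.1 TPM in L20. L30-1 lay between L20-2 and L20-3, and the other L30 libraries lay below all L20 libraries.

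MiR-99a-5p ranked 91, with 87.0, 31.6 and 29.2 TPM in L30 and 93.7, 91.5 and 67.3 TPM in L20. L30-1 sat among the L20 values, and the other two L30 libraries were well below. The minor arms were rare, miR-100-3p at 12.8, 9.96 and 6.02 TPM in L30 and 23.9, 13.1 and 11.8 TPM in L20, where L30-1 lay above L20-3. MiR-99a-3p was the lowest member, at rank 162, with 4.86, 1.71 and 2.40 TPM in L30 and 9.21, 8.29 and 7.15 TPM in L20. It was the 1 member for which every L30 library lay below every L20 library, a pattern that 46.2% of the 236 tested miRNAs showed on the TPM scale.

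The order of the 6 levels was the same in every library. The closest neighbours were miR-100-3p and miR-99a-3p, with a ratio of counts between 1.58 and 5.83, and miR-125b-3p and miR-99a-5p, with a ratio between 1.85 and 3.79. The step that reached furthest was that between the arms of miR-125b, at 5.63 to 26.8. Mature miRNAs are of similar length, so the counts were compared without a length correction, although ligation of adapters is known to favour some miRNAs. Together the 6 members took 2.16% ± 0.458 (SD, n = 3) of the counted miRNA reads in L30 and 2.06% ± 0.375 (SD, n = 3) in L20. On the TPM scale their sum was 7292 ± 3984 in L30 and 11295 ± 2915 in L20 (SD, n = 3 each).

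**Figure D1:**
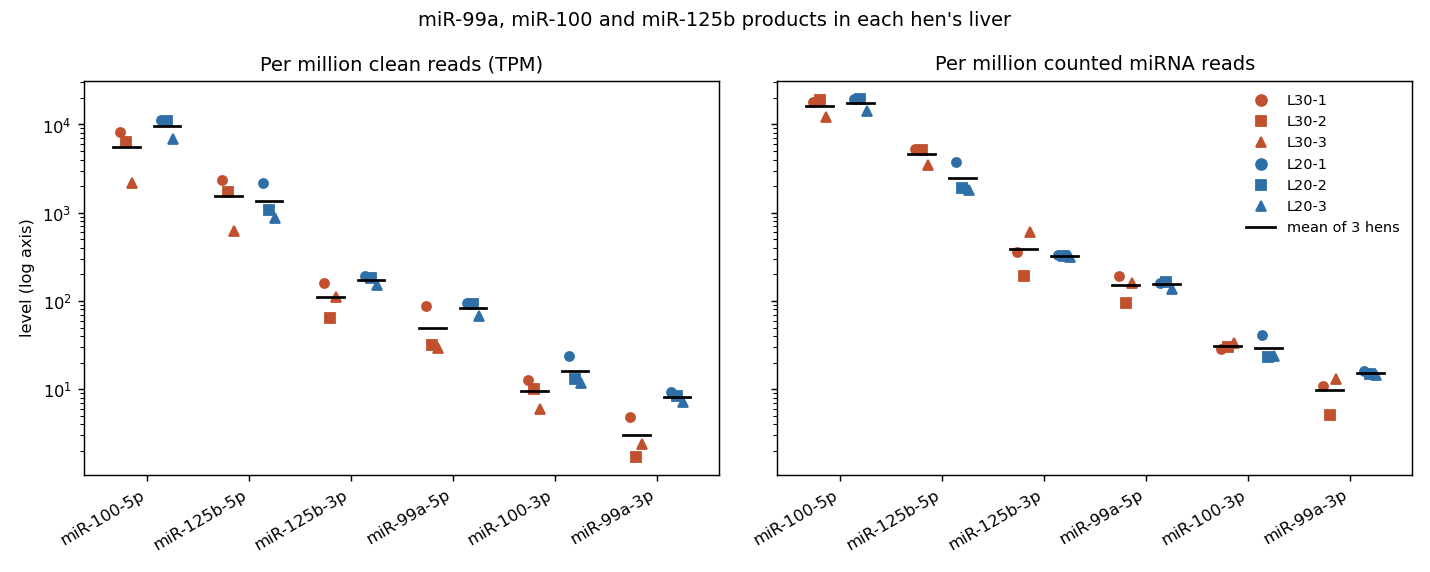
Level of each member in each hen, as TPM (left) and RPM (right, per counted miRNA reads), both on a log axis. Points are single hens and bars are means of 3 hens; miR-100-5p is highest and miR-99a-3p lowest in every library, and only miR-99a-3p has all L30 points below all L20 points.

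With the clean reads as library size, none of the 6 members was called between the ages, where a call is a Benjamini-Hochberg adjusted p of 0.05 or less over the 236 miRNAs tested by quasi-likelihood in edgeR. At an unadjusted p of at most 0.05, 1 member was lower in L30 and 0 were higher. Of the 236 tested miRNAs, 92 passed this unadjusted limit, 88 of them lower in L30. Over all tested miRNAs, edgeR called 24.6% lower in L30 and 0% higher. DESeq2 on the same library sizes called 1 member lower, miR-99a-3p, and 39.7% of the 199 miRNAs to which it gave an adjusted p. The log2 fold changes of L30 over L20 were negative for 5 of the 6 members and had a median of −0.77, beside a median of −0.86 over all tested miRNAs. The largest was that of miR-99a-3p, at 2.99 ± 1.65 TPM in L30 and 8.22 ± 1.03 TPM in L20 (SD, n = 3 each), for a log2 difference of −1.45 ± 0.62 (SE, adjusted p = 0.0630 in edgeR). MiR-100-5p averaged 5553 ± 3058 TPM in L30 and 9640.4 ± 2369 TPM in L20, a log2 fold change of −0.80 ± 0.46 (SE, adjusted p = 0.183 in edgeR).

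MiR-99a-5p averaged 49.3 ± 32.7 TPM in L30 and 84.2 ± 14.7 TPM in L20, with a log2 fold change of −0.77 ± 0.55 (SE, adjusted p = 0.280 in edgeR). The values of miR-100-3p and miR-125b-3p were −0.76 and −0.65, with edgeR adjusted p of 0.328 and 0.371. MiR-125b-5p was the exception in sign, at 1565 ± 882 TPM in L30 and 1371 ± 699 TPM in L20, with a log2 fold change of 0.19 ± 0.47 (SE, adjusted p = 0.792 in edgeR), which is within the spread between hens. Its sign turned without L30-1 (−0.24) and without L20-3 (−0.046). In the study's own comparison, miR-125b-5p was among the miRNAs listed as up-regulated in L30. That comparison took its p-values from a Fisher test in DEGseq, unlike the test across hens used here. Fisher's exact test on pooled counts, which ignores the spread between hens, called miR-125b-5p higher here too, at a log2 fold change of 0.13. It called 31 of the 236 tested miRNAs higher and 174 lower. The study also reported that quantitative PCR of selected miRNAs, miR-125b-5p among them, matched its sequencing.

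With the replicate number as a block, miR-100-5p and miR-99a-3p were called lower in L30, with log2 fold changes of −0.96 and −1.58 and edgeR adjusted p of 0.0387 and 0.0332. In that blocked fit 37.3% of all tested miRNAs were called lower. The replicate numbers come from the sample titles alone, and nothing states what same-numbered libraries of different hens share. Without L30-1, but with no block, miR-99a-3p (−1.99, edgeR adjusted p = 0.0123) and miR-99a-5p (−1.47, edgeR adjusted p = 0.0199) were called lower, as were 43.2% of all tested miRNAs in that fit.

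Because the miRNA share of the libraries differed between the ages, the test was repeated with each library's total of counted miRNA reads, the summed counts, as its size. The median log2 fold change of all tested miRNAs was then −0.10, with 16.1% called lower and 12.3% called higher in L30. The members again gave no call, and 1 of them passed 0.05 before adjustment, as did 101 of the 236 tested miRNAs. This member was miR-125b-5p. It stood at 5273, 5118 and 3435 RPM in L30 against 3747, 1901 and 1796 RPM in L20. The L30 libraries were high, but L30-3 lay below L20-1. Its log2 fold change on this scale was 0.89 ± 0.32 (SE, adjusted p = 0.0637 in edgeR). It was called as higher with upper quartile factors, with DESeq2's size factors in edgeR and in DESeq2 itself (adjusted p of 0.0167, 0.0493 and 0.0150). Those fits called 17.4%, 14.0% and 15.3% of all tested miRNAs higher, and with upper quartile factors the median log2 fold change of all was 0.12.

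MiR-100-5p had 18140, 19002 and 12047 RPM in L30 and 19229, 19466 and 14081 RPM in L20, and its log2 fold change was −0.10 ± 0.23 (SE, adjusted p = 0.770 in edgeR). That of miR-99a-5p was −0.04 (standard error 0.29). That of miR-100-3p was 0.05 (standard error 0.28) and that of miR-125b-3p 0.26 (standard error 0.38), with overlapping ages. The members' median was 0.00, beside −0.10 over all tested miRNAs. MiR-99a-3p stayed lower in each L30 library than in any L20 library, at 10.8, 5.15 and 13.2 RPM in L30 against 15.9, 14.8 and 14.6 RPM in L20. Its log2 fold change was −0.64 ± 0.36 (SE, adjusted p = 0.207 in edgeR), and 27.5% of the tested miRNAs had all L30 libraries below all L20 libraries on this scale.

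**Figure D2:**
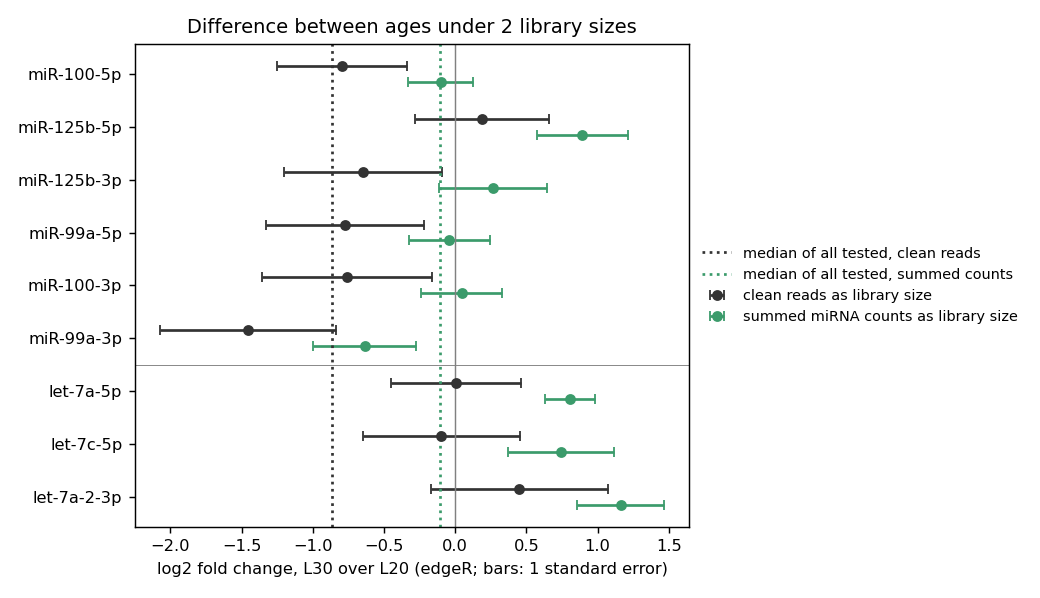
Log2 fold change (L30 over L20) of the 6 members and the 3 tested let-7 partners, with the clean reads (dark) or the summed miRNA counts (green) as library size. Points are edgeR estimates, bars are 1 standard error and dotted lines are the medians of all tested miRNAs, at −0.86 and −0.10; miR-99a-5p and miR-100-5p lie near the medians, and miR-125b-5p and the let-7 partners lie to their right.

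The log2 fold changes of the 3 tested let-7 partners lay between −0.10 and 0.45 with the clean reads. Let-7a-5p averaged 3234 ± 1121 TPM in L30 and 3221 ± 602 TPM in L20 (SD, n = 3 each), for a log2 difference of 0.01 ± 0.46 (SE, adjusted p = 0.990 in edgeR). Let-7c-5p averaged 106.4 ± 60.3 TPM in L30 and 113.8 ± 22.2 TPM in L20, and its log2 fold change was −0.10 (standard error 0.55). Let-7a-2-3p, the product of the miR-100 cluster alone, had 5.62, 3.57 and 1.79 TPM in L30 and 3.15, 2.34 and 2.54 TPM in L20, and its log2 fold change was 0.45 ± 0.62 (SE, adjusted p = 0.595 in edgeR). None of the 3 was called with the clean reads as library size, in edgeR or DESeq2. In edgeR 0 passed 0.05 before adjustment, against 92 of all 236 tested miRNAs. The sign turned for let-7a-5p without L30-1 (−0.27) and for let-7c-5p without L30-2 (0.21), among others. The study named let-7a and let-7c within a let-7 family that it gave as differentially expressed at p of at most 0.05. Its p-values came from a Fisher test in DEGseq, unlike the test across hens used here.

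With the summed counts as library size, let-7a-5p and let-7a-2-3p were called as higher in L30, with log2 fold changes of 0.81 and 1.16 (edgeR adjusted p = 0.0113 and 0.0256). Every L30 library then lay above every L20 library for both, as for 19.5% of the tested miRNAs. Let-7c-5p had 0.74 ± 0.37 (SE, adjusted p = 0.162 in edgeR). Of the 16 listed let-7 products 15 were tested, and 8 were called higher and 0 lower with the summed counts, against 0 and 0 with the clean reads, where 0 passed 0.05 before adjustment. The called ones were 7 of the 9 main arms and 1 of the 6 minor 3p arms, and the main arms had a median log2 fold change of 0.82 with the summed counts and 0.02 with the clean reads. Both medians are the values of let-7j-5p, which was called as let-7a-5p was. Its reads ordered the libraries like those of let-7a-5p, at 27395, 14083 and 14463 in L30 and 25290, 24947 and 13036 in L20. Let-7a-5p had 84971, 43770 and 44728 reads in L30 and 79388, 78254 and 40784 in L20. Whether these miRNAs share reads was not tested, so they may not be separate calls. Of all 236 tested miRNAs, 12.3% were called higher and 16.1% lower with the summed counts, against 0% and 24.6% with the clean reads. Before adjustment, 92 of the 236 passed 0.05 with the clean reads.

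To compare members with their let-7 partners without a library size, ratios of counts within each library were taken. The ratio of miR-99a-5p to let-7c-5p was 0.502, 0.565 and 0.324 in L30 and 0.673, 0.884 and 0.682 in L20. Every L30 library was below every L20 library. The mean log2 ratio differed by −0.71 (standard error 0.28), or a ratio 0.610 times that of L20 (exact two-sided permutation test, p = 0.1, adjusted over 4 pairs 0.2). With 3 hens against 3, p = 0.1 is the smallest value this exact test can give. Of all other tested miRNAs, 29.4% had ratios to let-7c-5p with every L30 library below every L20 library.

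For the miR-100 cluster, the ratio of miR-100-5p to let-7a-5p was 1.88, 1.94 and 1.04 in L30 and 2.85, 3.69 and 2.46 in L20, again without overlap. Let-7a-5p is also listed for let-7a hairpins outside this cluster, so this ratio may not reflect the cluster alone. The mean log2 ratio differed by −0.92 (standard error 0.34, exact two-sided permutation test p = 0.1, adjusted over 4 pairs 0.2), that is 0.527 times the L20 ratio. The minor arms, chosen for comparison after the values were seen, gave a ratio of miR-100-3p to let-7a-2-3p of 2.28, 2.79 and 3.37 in L30 and 7.58, 5.60 and 4.62 in L20. This is a log2 difference of −1.06 (standard error 0.26, exact two-sided permutation test p = 0.1). The direction was the same on both arms, but as this pair was chosen with its values known, that adds no support. Let-7a-2-3p also rests on only 38 to 110 reads in L30 and 37 to 64 reads in L20.

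An edgeR fit over all miRNAs with the let-7 partner's counts as library size was also chosen after the values were seen. In it, miR-100-5p fell relative to let-7a-5p by 0.89 ± 0.27 on the log2 scale (SE, adjusted p = 0.0217 in edgeR), and miR-100-3p fell relative to let-7a-2-3p by 1.08 ± 0.30 (SE, adjusted p = 0.00826 in edgeR). MiR-99a-5p was not called relative to let-7c-5p (−0.69 ± 0.55 on the log2 scale, adjusted p = 0.397 in edgeR). These calls are to be read against the other miRNAs, of which 50.2% were called lower relative to let-7a-5p, 62.1% relative to let-7a-2-3p and 11.1% relative to let-7c-5p. Likewise, 60.0% of the other miRNAs had all their L30 ratios to let-7a-5p below those of L20, and 66.4% for let-7a-2-3p. The fall of miR-100 relative to let-7a was thus shared with a large part of the table.

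For miR-125b-5p, the ratios to both let-7 partners overlapped between the ages. Its ratio to let-7a-5p was 0.546, 0.522 and 0.297 in L30 and 0.555, 0.360 and 0.314 in L20, a log2 difference of 0.14 (standard error 0.38, exact two-sided permutation test p = 1). Its ratio to let-7c-5p was 13.7, 30.4 and 6.92 in L30 and 15.6, 10.3 and 8.94 in L20, a log2 difference of 0.34 (standard error 0.66, exact two-sided permutation test p = 0.7). The sign of each difference turned when a single library was left out, L30-1 (−0.014) or L20-3 (−0.026) for let-7a-5p and L30-2 (−0.21) for let-7c-5p.

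**Figure D3:**
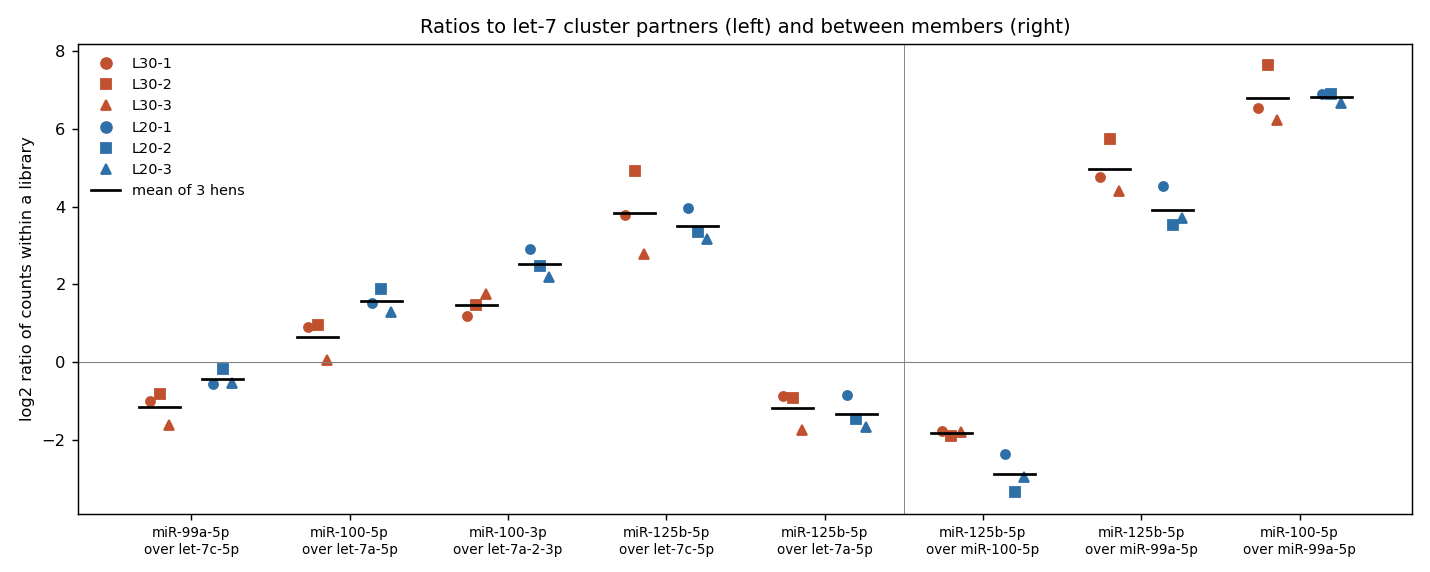
Log2 ratio of counts within each library, for members over let-7 partners (left of the line) and between members (right). Let-7a-5p is also listed for let-7a hairpins outside the miR-100 cluster. Points are single hens and bars are means of 3 hens; all L30 points lie below all L20 points for miR-99a-5p over let-7c-5p, miR-100-5p over let-7a-5p and miR-100-3p over let-7a-2-3p, and above them for miR-125b-5p over miR-100-5p.

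Between members, the ratio of miR-125b-5p to miR-100-5p separated the ages. It was 0.291, 0.269 and 0.285 in L30 and 0.195, 0.0976 and 0.128 in L20, so that the 3 laying hens were close to each other and all higher. The mean log2 ratio differed by 1.07 (standard error 0.29), or 2.10 times the L20 ratio (exact two-sided permutation test, p = 0.1, adjusted over 3 pairs 0.3). Of all other tested miRNAs, 18.7% had ratios to miR-100-5p with every L30 library above every L20 library. With each library left out in turn, the difference stayed between 0.84 and 1.34.

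The ratio of miR-125b-5p to miR-99a-5p was 27.3, 53.8 and 21.3 in L30 and 23.2, 11.6 and 13.1 in L20. The log2 difference was 1.05 (standard error 0.50, exact two-sided permutation test p = 0.2, adjusted over 3 pairs 0.3), and L30-3 lay below L20-1. The ratio of miR-100-5p to miR-99a-5p was 93.9, 199.6 and 74.9 in L30 and 118.9, 118.7 and 102.7 in L20, a log2 difference of −0.02 (standard error 0.43, exact two-sided permutation test p = 1). It was nearly constant among the L20 hens and spread widely among the L30 hens, and its sign turned without L30-1 (0.11), L30-3 (0.27), L20-1 (0.019) or L20-2 (0.018). The mature sequences of miR-99a-5p and miR-100-5p are near-identical, and the alignment tolerated mismatches. As miR-100-5p had from 74.9 to 199.6 times the reads, a small share of miR-100-5p reads counted for miR-99a-5p would weigh on it, and this was not tested. The same holds for let-7c-5p beside the more abundant let-7a-5p.

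The arms of a hairpin were compared by the log2 ratio of 5p to 3p counts in each library, with limma over 64 hairpins. The 5p arm was the major product of all 3 hairpins. For miR-100 it outnumbered the 3p arm by 636, 633 and 364 times in L30 and by 467, 831 and 588 times in L20, a log2 difference of −0.21 (standard error 0.35, limma adjusted p = 0.610), whose sign turned without L30-3 (0.054) or L20-2 (0.0083). For miR-99a the ratio was 17.9, 18.5 and 12.2 in L30 and 10.2, 11.1 and 9.40 in L20. The ages did not overlap, with a log2 difference of 0.63 (standard error 0.26, limma adjusted p = 0.0657). Any miR-100-5p reads counted for miR-99a-5p would weigh on this ratio too, which was not tested. Over all 64 hairpins, the ages did not overlap for 53.1%, and 45.3% of the 64 were called.

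The higher 5p ratio of miR-99a in L30 was called with the replicate number as a block (limma adjusted p = 0.0498), with at least 50 counts required on each arm (limma adjusted p = 0.0108) and without L30-3 (0.82, limma adjusted p = 0.0215). These fits called 48.4% of 64 hairpins, 65.2% of 46 and 45.3% of 64. For miR-125b the ratio was 14.8, 26.8 and 5.63 in L30 and 11.4, 5.89 and 5.76 in L20, with L30-3 the lowest and L30-2 the highest of all. The log2 difference was 0.84 (standard error 0.53, limma adjusted p = 0.211). It was called without L30-3 (1.45, limma adjusted p = 0.0219) and without L20-1 (1.17, limma adjusted p = 0.0436), whereas without L30-2 it was 0.33 (limma adjusted p = 0.557). The fits without L30-3 and without L20-1 called 45.3% and 48.4% of the hairpins. As reads of the other miR-125b copy with the same mature sequence were counted too, the miR-125b ratio may join both copies. Arm use and the output of each copy cannot be told apart in it. Over all 64 hairpins the median log2 difference was 0.12.

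**Figure D4:**
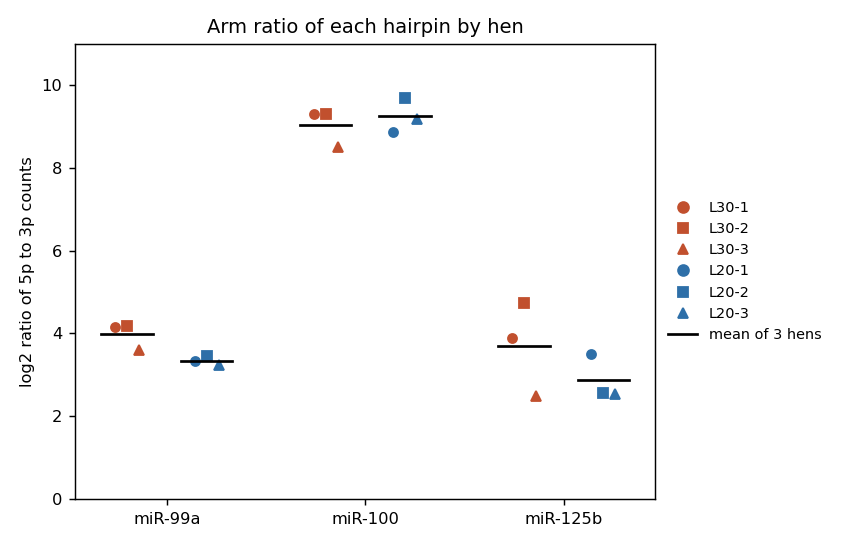
Log2 ratio of 5p to 3p counts of each listed hairpin in each hen, where reads of both miR-125b copies may be counted together. Points are single hens and bars are means of 3 hens; the miR-100 ratio is far above the others, and only for miR-99a do all L30 points lie above all L20 points.

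The profiles of the 5p members were compared across the 6 libraries. The root-mean-square difference of their centred log2(TPM + 1) profiles was 0.432 between miR-99a-5p and miR-100-5p, 0.608 between miR-100-5p and miR-125b-5p, and 0.720 between miR-99a-5p and miR-125b-5p. The spread of each profile about its own mean, on the same measure, was 0.697 for miR-99a-5p, 0.787 for miR-100-5p and 0.703 for miR-125b-5p. The miRNAs named next were picked as the nearest of all other tested miRNAs, so their nearness is no yardstick for the members. The nearest to miR-100-5p were miR-30c-5p (0.0926), miR-301a-3p (0.138) and miR-130a-3p (0.190). For miR-99a-5p they were miR-183 (0.169), miR-6544-5p (0.191) and miR-454-3p (0.221). For miR-125b-5p they were miR-130a-5p (0.194), miR-1786 (0.287) and miR-6648-3p (0.305). These distances describe 6 libraries that share differences in miRNA share and carry no test.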

How the data were processed

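Small RNA was sequenced in 6 liver libraries, each taken as 1 hen. Per the methods of the study, the authors filtered reads with the Fastx toolkit and used CLC Genomics Workbench 5.5 to align what remained with miRBase 21.0, tolerating mismatches and altered ends. The authors deposited unnormalized read counts of 565 mature miRNAs per library. The authors also deposited TPM values, whose denominators equal the study's raw read totals and not the clean reads that define them. The TPM printed here are therefore counts divided by the study's clean read totals. Groups and replicate numbers came from the sample titles, and 0 value columns were left unmapped. Nothing states that replicates share more than their age. The p-values measure the spread between hens, except those of Fisher's exact test on pooled counts, which ignores it.

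The main test of the counts was glmQLFTest after a robust glmQLFit (edgeR 4.0.16, run under R 4.3.3), after filterByExpr at its defaults, with the clean reads as library size and normalization factors of 1. A standard error is the absolute log2 fold change divided by the square root of F. Calls had a Benjamini-Hochberg adjusted p of at most 0.05 over all tested miRNAs. Arm ratios (0.5 added to each count, a mean of at least 10 counts on each arm) were tested with limma 3.58.1, and single ratios with exact permutation tests over 20 regroupings. Alternatives were other library sizes and factors, DESeq2 1.42.0, pooled counts in Fisher's exact test, limma on log2(TPM + 1), other filters, each library left out, and the replicate number as a block. Same-numbered libraries come from different hens, but their deviations from the group means correlated weakly in every pair (0.119, 0.171 and 0.188 over 236 miRNAs). Blocked values are therefore given where they change a call. Differently numbered pairs were not compared, so these correlations do not show that the numbers mark a pairing. The tests across miRNAs or hairpins were tested on simulated data. The simulated miRNA changes went up and down equally often, so they do not bear on the choice of library size. Let-7 partners are products of let-7 hairpins within 50 kb of a member in the RefSeq table. Named miRNAs are all members, their let-7 partners, markers by cell type and, per 5p member, the 3 tested miRNAs with the most similar profile. Members and lists were chosen with earlier results of these data known. Plots used matplotlib 3.10.9 (Python 3.11.15).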

Additional observations from a re-analysis of the deposited data

How the results depend on the processing

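The number of members called lower in L30 was 0 with the clean reads and 1 with the denominators of the deposited TPM, DESeq2 on the clean reads, limma or at least 10 counts in every library. It was 2 with the replicate block, which changed the calls of miR-100-5p, miR-99a-3p and the miR-99a arm ratio and no other, and between 0 and 2 with 1 library left out. Fisher's exact test on pooled counts, which ignores the spread between hens, called 5 lower and 1 higher. Upper quartile factors, DESeq2's size factors in edgeR and DESeq2 itself called 1 higher. Of the tested let-7 partners, 0 were called with the clean reads, 2 as higher with the summed counts, TMM, upper quartile factors, DESeq2's size factors in edgeR and DESeq2 itself, and 1 higher and 1 lower with Fisher's test. Over all miRNAs 58 of 236 were called, 75 of 236 with the deposited denominators, 81 of 199 by DESeq2 on the clean reads, 78 of 236 by limma, 61 of 185 with at least 10 counts in every library, 205 by Fisher's test, 90 with the block, 88 by DESeq2 with its own size factors (52 lower and 36 higher) and from 6 (without L30-2) to 102 (without L30-1) with 1 library left out. Higher calls over all 236 numbered 29 with the summed counts, 22 with TMM, 41 with upper quartile factors and 33 with DESeq2's size factors in edgeR. Lower calls in these fits numbered 38, 55, 25 and 38. The median log2 fold change of all tested miRNAs was −0.25 with TMM and 0.12 with upper quartile factors.

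Under upper quartile factors the log2 fold changes of miR-100-5p, miR-99a-5p, miR-125b-3p, miR-100-3p and let-7c-5p turned to 0.11, 0.16, 0.51, 0.31 and 0.99. With the summed counts miR-125b-3p, miR-100-3p and let-7c-5p turned to 0.26, 0.047 and 0.74, with DESeq2's factors in edgeR to 0.27, 0.068 and 0.75, and in DESeq2 itself to 0.27, 0.066 and 0.75. With TMM, miR-125b-3p and let-7c-5p turned to 0.11 and 0.59. Let-7a-5p turned to −0.056 with the deposited denominators, −0.040 with limma and with the block, and −0.016 with Fisher's test. With 1 library left out, the log2 fold change ranged from −0.24 to 0.69 for miR-125b-5p, from −0.27 to 0.24 for let-7a-5p, from −0.64 to 0.21 for let-7c-5p and from −0.0075 to 0.78 for let-7a-2-3p. The log2 ratio differences ranged from −0.21 to 0.86 for miR-125b-5p over let-7c-5p, from −0.026 to 0.43 for miR-125b-5p over let-7a-5p and from −0.43 to 0.27 for miR-100-5p over miR-99a-5p. The arm ratio differences ranged from 0.53 to 0.82 for miR-99a, from −0.41 to 0.054 for miR-100 and from 0.33 to 1.45 for miR-125b. That of miR-99a was 0.63 and called with the block and with at least 50 counts on each arm. Those fits called 48.4% of 64 hairpins and 65.2% of 46. MiR-100-5p over let-7a-5p was −0.89 and called in the edgeR fit on the let-7 partner. That fit was chosen after the values were seen and called 50.2% of the other miRNAs lower. The cause of these changes was not tested, and leaving out 1 library also made its group smaller. MiR-99a-3p rests on 23 to 95 reads per L30 library, and the part of depth in these values was not tested.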
